A study of Mus musculus with 35 samples.

Results

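SatM, the segregated-nucleus-containing atypical monocytes that the study ties to fibrosis, were set against the marker-negative cells sorted beside them, which carry neither Msr1 nor Ceacam1. The members were chosen by sample label: 3 SatM arrays and 3 marker-negative arrays, 1 of each from spleen, bone marrow and blood, so 6 of the series' 35 arrays. All 6 samples came from male C57BL/6J mice aged 8 weeks, housed specific-pathogen-free with no treatment named, and the cells were sorted by flow cytometry. The labels give the marker-negative sort as F4/80- Mac1+ Ly6C- Msr1- Ceacam1- monocytes; they do not spell out the SatM gate, nor whether the RNA of several mice was pooled. With 1 array per sort and tissue, the tissue is the replicate. The p-values of the tissue-paired comparison of these 6 arrays therefore measure the spread of the difference over 3 tissues. Those of the spleen contrasts given later take their spread from marrow and blood within each sort. Those of a larger fit of the tissue panel take it from other sorts too. None of them measures the spread over mice.

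Monocytes of the Ly6C-low kind patrol the vessel wall, depend on the receptor for colony-stimulating factor 1 (Csf1r) and express genes for lipid uptake and Fc receptors. Natural killer (NK) cells are lymphocytes that carry Mac1 (the integrin chain Itgam paired with Itgb2) as well, and they kill targets with granzymes and the death ligand Fasl. Their receptors, many of them C-type lectins encoded side by side in one gene complex, weigh activating against inhibitory signals, and the T-box factors Tbx21 and Eomes direct their maturation. Dendritic cells, which share the spleen and some surface markers with both, take up antigen and present it on MHC class II.

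Values are the deposited log2 levels, whose lowest value, 2.30, is a floor that holds 46.2 to 47.9% of the probe sets of each of the 6 arrays. Array medians lay between 2.33 and 2.35 and upper quartiles between 6.35 and 6.42, so the arrays had like distributions. A gene was called where limma's Benjamini-Hochberg adjusted p over all 10695 genes tested was under 0.05 and the mean within-tissue difference was at least 1 log2 unit. Some arrays stood apart from the others of their sort. In marker-negative spleen 568 genes lay at least 2 log2 units above both others, and in marrow SatM 448 did, against 69 to 98 in each of the other 4 arrays. Downward, blood SatM lay as far below both others in 273 genes and marker-negative blood in 241, against 5 to 63 in each of the other 4. Results that rest on the spleen pair are therefore given by tissue. In bulk samples such as these, fewer cells of a type and less RNA per cell cannot be told apart.

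The 4 genes given to mark the sorts separated them in every tissue. Gzma, the granule protease granzyme A, stood at 14.08, 14.28 and 14.77 in the marker-negative cells of spleen, bone marrow and blood, and at 4.24, 2.86 and 7.28 in SatM. Klrk1, the activating receptor NKG2D, stood at 10.27, 11.39 and 11.97 in the marker-negative cells and at the floor in all 3 SatM arrays. Csf1r ran the other way, at 13.68, 13.21 and 14.26 in SatM against 9.49, 3.67 and 2.30 in the marker-negative cells. In none of these genes did the groups overlap. In the low group of each, blood SatM for Gzma and the marker-negative spleen array for Csf1r were the highest. Ceacam1 was at 12.44, 11.67 and 12.71 in SatM and at 5.78, 2.44 and 2.30 in the marker-negative cells, but the sort used it, as it used Msr1 (9.23, 8.24 and 8.59 against 3.02 in each marker-negative array), so neither is a finding. Klrk1 was lower in SatM by a called difference of -8.91 ± 0.46 (SE, n = 3 tissues, adjusted p = 0.0385, limma), at least 482-fold. Gzma differed by -9.58 ± 0.87 and missed the threshold (adjusted p = 0.0516), as did Csf1r (8.57 ± 1.72, adjusted p = 0.116) and Ceacam1 (8.77, adjusted p = 0.0559).

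**Figure D1:**
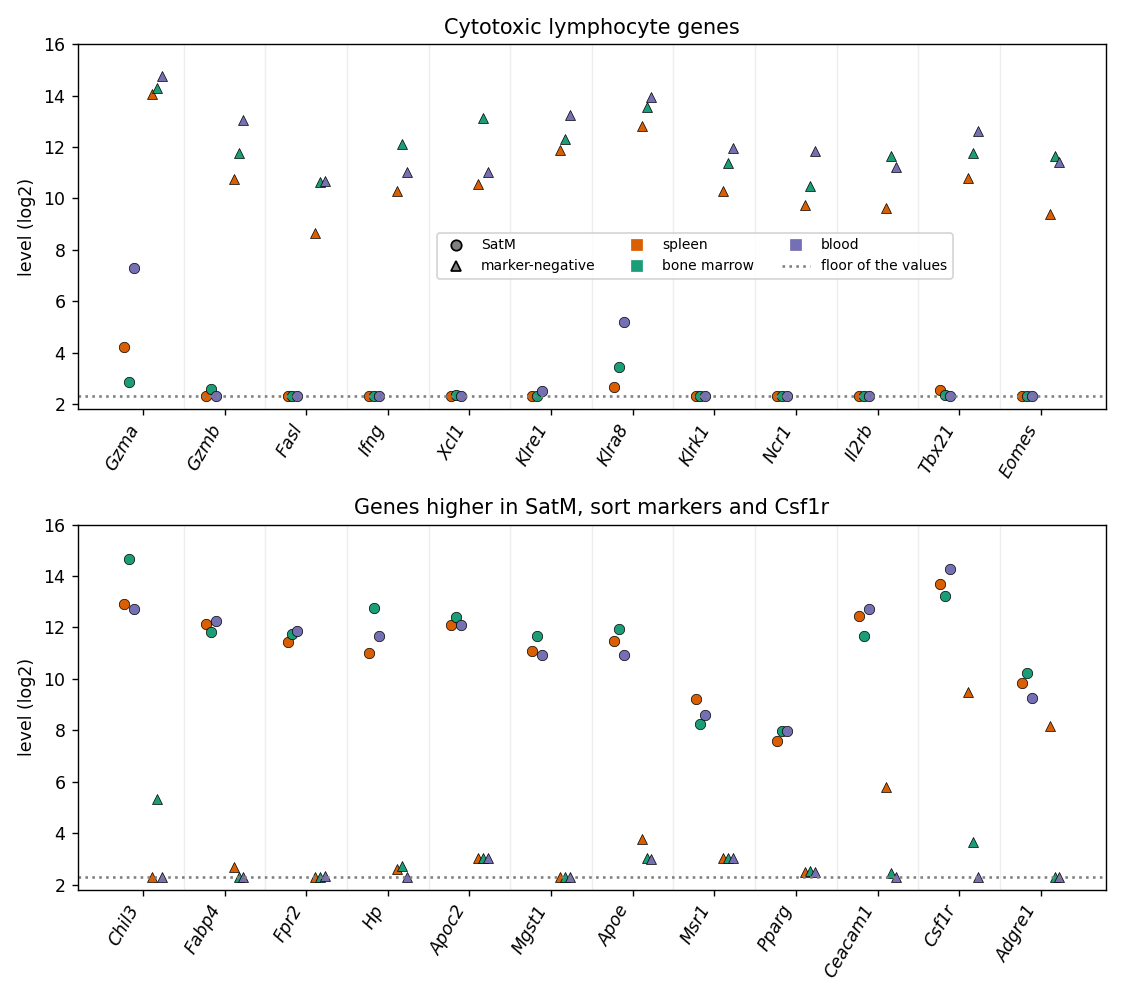
Levels (log2) of 12 cytotoxic lymphocyte genes and 12 genes of the SatM side in the 6 arrays; circles are SatM, triangles marker-negative cells, colour is the tissue, and the dotted line is the floor at 2.30. Each point is 1 array. The marker-negative arrays lay above 8 for all genes of the upper panel, where the highest SatM value was that of Gzma in blood (7.28), and in the lower panel the spleen marker-negative array stood off the floor for Csf1r (9.49), Adgre1 (8.17) and Ceacam1 (5.78).

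The labels call the marker-negative cells monocytes, and the marrow and blood arrays went against that name, with 6 and 3 of 18 shared monocyte genes at 6 or more; the spleen array held 16 of the 18 beside its cytotoxic genes. In the mean of the 3 tissues the leading genes over SatM were those of cytotoxic lymphocytes, above all the lectin receptors, granzymes and T-box factors of NK cells. Several of these genes share a short word in their promoters. TGTGGTT, a core that RUNX factors bind, was found on either strand within the 250 bases before the start in 5 of the 32 promoters that could be read for genes higher in marker-negative cells (15.6%). It was in 0 of 70 promoters of genes higher in SatM, in 3.15% of the promoters of tested genes and in 4.46% of all 27025 mouse promoters. The words searched were chosen after the values were seen, and a match is a description of letters, not a bound site. The 100 bases around each of the 5 matches are shown, with the match in capitals, because these genes are among those that part the sorts most; positions are RefSeq's, build GRCm38.p6, 5′ to 3′ on the gene's strand.
Gzmb, chr14:56262335-56262434, minus strand: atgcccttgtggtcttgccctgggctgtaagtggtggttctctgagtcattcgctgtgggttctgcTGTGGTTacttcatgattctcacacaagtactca
Klre1, chr6:129577963-129578062, plus strand: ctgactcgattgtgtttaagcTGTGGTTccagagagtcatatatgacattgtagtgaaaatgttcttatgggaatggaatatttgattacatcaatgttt
Klrk1, chr6:129623940-129624039, minus strand: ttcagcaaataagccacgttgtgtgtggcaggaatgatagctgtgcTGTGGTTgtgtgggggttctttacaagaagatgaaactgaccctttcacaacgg
Ncr1, chr7:4337493-4337592, plus strand: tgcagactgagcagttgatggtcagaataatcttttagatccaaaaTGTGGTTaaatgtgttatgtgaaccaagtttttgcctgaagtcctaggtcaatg
Xcl1, chr1:164935673-164935772, minus strand: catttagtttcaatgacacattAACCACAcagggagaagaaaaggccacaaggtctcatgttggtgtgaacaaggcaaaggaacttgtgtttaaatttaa
The Xcl1 match lies on the opposite strand. The match began 34 bases before the annotated start in Gzmb, 129 in Klrk1, 176 in Ncr1, 228 in Xcl1 and 229 in Klre1. The T-box word AGGTGTGA was in 0 of the 32 and 1 of the 70 promoters, and the PU.1 word GAGGAAGT in 0 and 3. The C/EBP word TTGCNNAA, where N is any base, was in 5 (15.6%, the same share as the RUNX word) and 9 (12.9%). It was in 7.44% of the promoters of tested genes. Runx3, the RUNX gene of cytotoxic lymphocytes, was at 9.48, 10.28 and 9.79 in the marker-negative cells and at 7.52, 7.63 and 5.51 in SatM, without overlap and without passing the test (-2.96, adjusted p = 0.106). Other RUNX genes are not given here, and whether any of them acts on these promoters was not tested.

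Over all genes, 136 were called (1.27% of 10695 tested), 92 higher in SatM (0.86%) and 44 higher in the marker-negative cells (0.411%). The median difference of all genes was -0.11. The 3 arrays of one sort did not overlap those of the other in 1303 genes higher in SatM (12.2%) and 1716 higher in the marker-negative cells (16%), so many more genes parted the groups than passed the test, which has 2 residual degrees of freedom. The count moved with the processing. With no filter on dim genes it was 0 in limma (2260 at an unadjusted p under 0.05), which ends every call named here. Without the tissue pairing it was 651. In a fit of all 15 arrays of the tissue panel, with cell type and tissue as terms, the count was 1200 (10.2% of 11734), 580 higher in SatM (4.94%) and 620 lower (5.28%). That fit also takes the lung SatM array as SatM, though lung has no marker-negative array. The Msr1-dull Ceacam1-dull sorts of marrow and lung share 1 cell type term in it, as do the lung macrophage sorts. Of the 136 genes, 126 (92.6%) were called in the same direction there. With the spleen, the marrow or the blood pair left out, 0 genes passed in limma with 1 residual degree of freedom, while 2131, 1405 and 1507 had an unadjusted p under 0.05. The 15-array fit, which takes its spread from other sorts too, called 1004, 416 and 235 genes without the same pairs; this was chosen after seeing the data.

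**Figure D2:**
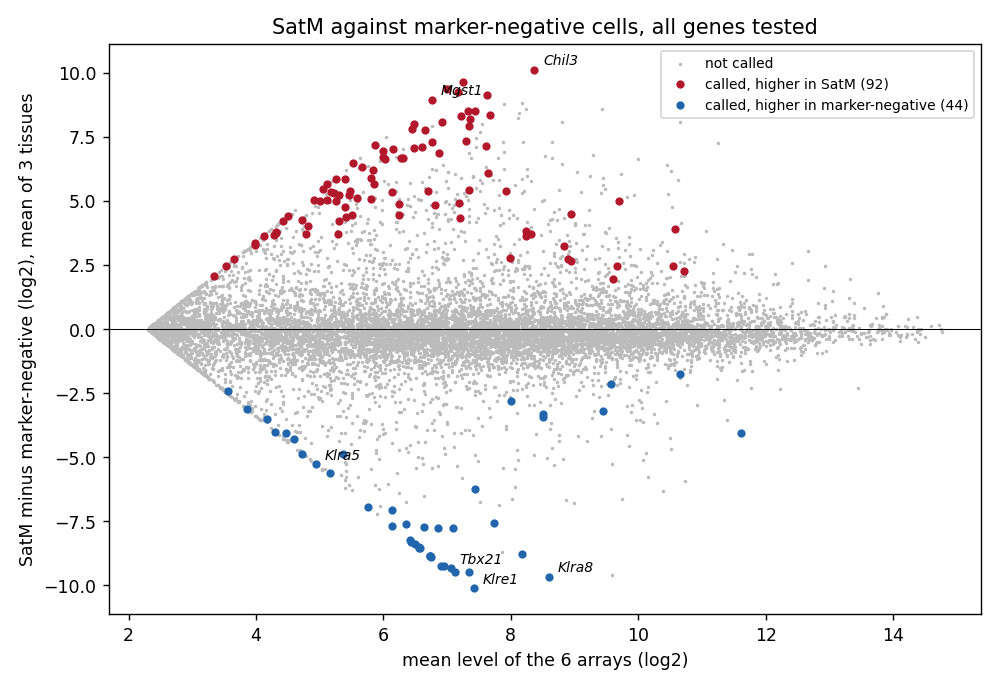
Mean SatM minus marker-negative difference over the 3 tissues (log2, vertical axis) against the mean level of the 6 arrays (log2, horizontal axis); each point is 1 of 10695 genes tested. Called genes are coloured, 92 above 0 and 44 below, and the straight edges on the left are genes whose one group lies at the floor.

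Receptors of NK cells led the 44 genes higher in the marker-negative cells. Of 20 tested genes on the NK receptor list (30 listed, 22 measured), 10 rose in the marker-negative cells and 1, Klra2, in SatM, with a median SatM minus marker-negative difference of -7.75. Klre1, a lectin receptor of NK cells, was at 11.90, 12.30 and 13.24 in the marker-negative cells of spleen, marrow and blood and at 2.30, 2.30 and 2.51 in SatM (-10.11 ± 0.35, adjusted p = 0.0313). Klrd1 (CD94) and its partner Klrc1 (NKG2A), which together read MHC class Ib, differed by -8.79 and -9.46. Klrd1 reached 4.68 in spleen SatM, still more than 7 units under the lowest marker-negative array.
Ncr1, the activating receptor NKp46 that marks NK cells in the mouse, stood at 9.73, 10.49 and 11.86 against the floor in SatM (-8.40 ± 0.55, adjusted p = 0.0385), at least 337-fold. It was also at the floor in all 29 other arrays of the series. The Ly49 receptors Klra8 and Klra7 differed by -9.68 and -8.86, Klrb1a and Klrb1b by -9.23 and -8.29, and the interleukin receptor chains Il2rb and Il18r1 by -8.54 and -7.77. Klra genes are near-identical paralogs, so their probe sets may read more than 1 of them.
Klra2 alone of the list was higher in SatM, at 9.64, 8.85 and 10.52 against an identical 2.63 in all 3 marker-negative arrays (7.03 ± 0.47, adjusted p = 0.0385). Klrg1, a marker of mature NK cells, was at 9.23, 8.86 and 12.03 against the floor and missed the threshold (-7.74, adjusted p = 0.0581), as did Cd96 (-5.88), Slamf7 (-4.04) and Cd160 (-3.08). The RefSeq gene table holds 33 Klr genes on chromosome 6, of which 15 were tested: 10 were higher in the marker-negative cells and 1 in SatM. In all, 13 of the 44 genes lie on chromosome 6, which holds 5.22% of the genes tested.

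Effector molecules followed, with 5 of 17 tested genes of the cytotoxic list higher in the marker-negative cells and 0 in SatM (list median -5.94). Gzmb, granzyme B, stood at 10.76, 11.77 and 13.05 in the marker-negative cells and at 2.30, 2.57 and 2.30 in SatM (-9.48 ± 0.57, adjusted p = 0.0385). Ifng, the cytokine interferon gamma, stood at 10.28, 12.13 and 11.03 against 2.33, 2.30 and 2.30 (-8.84 ± 0.49, adjusted p = 0.0385). Both were near the floor in every SatM array. Xcl1, a chemokine that draws cross-presenting dendritic cells, differed by -9.26, Fasl by -7.68 (at least 206-fold) and Serpinb9, the granzyme B inhibitor, by -7.71.
Other members did not pass the test. Prf1, the pore-forming protein perforin, was between 6.25 and 6.96 in all 6 arrays (-0.29, adjusted p = 0.644) on its probe set, and Srgn, the granule proteoglycan, was between 13.11 and 14.34. Nkg7, a granule membrane protein, was at 12.83, 13.71 and 14.12 in the marker-negative cells but also at 10.95 in marrow SatM (-6.32, adjusted p = 0.128). Ccl5, a chemokine of effector lymphocytes, was at 13.24 to 14.05 in the marker-negative cells and at 6.75 to 8.76 in SatM (-5.94, adjusted p = 0.0506). Ccl3 and Ccl4, inflammatory chemokines made by both lineages, were above 9 in spleen and marrow SatM. Blood SatM was lower in both, at 7.26 and 3.15.

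Of 19 tested lymphoid transcription factors, 2 rose in the marker-negative cells and 1 in SatM (list median -2.28). Tbx21 was at 10.80, 11.77 and 12.62 against 2.55, 2.34 and 2.30 (-9.33 ± 0.52, adjusted p = 0.0385), and Eomes at 9.40, 11.66 and 11.40 against the floor (-8.52 ± 0.60, adjusted p = 0.0385), at least 368-fold. Eomes was no higher than 2.43 in any of the other 29 arrays. Zbtb16, the factor PLZF of innate-like lymphocytes, was higher in SatM, at 10.15, 10.26 and 10.41 against 7.55, 7.49 and 7.82 (2.65 ± 0.18, adjusted p = 0.0385), a difference the 15-array fit did not call (adjusted p = 0.101). Gata3 (-6.27), Tox (-5.52) and Stat4 (-4.91) did not overlap between the sorts and did not pass the test. Id2 and Ets1 were above 11 in all 6 arrays, and Nfil3 was between 7.77 and 10.36.
Among 13 tested signalling adaptors of lymphocytes, Sh2d1a (SAP), which couples SLAM receptors to Fyn, was the 1 gene called (-7.04 ± 0.50, adjusted p = 0.0385; list median -4.48). Zap70, Lat and Cd247, which carry antigen and NK receptor signals, were lower in SatM by 4.45, 4.48 and 5.76 and passed the 15-array fit only. Tyrobp and Fcer1g, the adaptors that monocytes and NK cells both use, were above 12 in all 6 arrays, with differences of 0.05 and 0.29.

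The T cell list had 0 of 13 tested genes called in limma's 6-array fit and 5 without overlap, all higher in the marker-negative cells (16% of all genes tested). In the 15-array fit the list had 4 of 15 called higher there, against 5.28% of all genes. Its defining genes were measurable. Cd3d, Cd3e and Cd3g, chains of the T cell receptor complex, were at 8.59, 8.82 and 8.27 in the marker-negative spleen array, at 7.68, 7.03 and 7.42 in marrow and at 3.83, 6.20 and 5.20 in blood. SatM held part of this signal as well, with Cd3e at 7.69, 4.36 and 5.89. Cd4 was at 7.06 and Cd8a at 7.76 in the marker-negative spleen array and both were under 4.1 in the marker-negative arrays of marrow and blood, while Cd8b1 was no higher than 2.75 anywhere. Summed over the 15 genes of the list, the level was 12.77 to 13.44 in the marker-negative arrays and 8.05 to 11.20 in SatM, with 0 to 5 genes at the floor in the former and 0 to 7 in the latter. The part of T cells in the lymphoid differences was not tested. Cd7 (-7.55) and Il18r1 were also high in the arrays of SMP, the marrow progenitors of SatM in the study, at up to 12.22 and 12.68, and Gzmb in the SMP_WT arrays at up to 11.60.
Against the other 29 arrays, which hold no further marker-negative sort, 28 of the 44 genes had every other array below the lowest marker-negative array, and 17 were under 6 in all of them. The 44 were selected as high in these arrays, and the share over all genes tested was not computed. Of the 92 genes higher in SatM, 1 had every other array below the lowest SatM array, but the 29 hold further SatM arrays. Klra7, Ifng, Il2rb, Fasl, Klra5, Phactr3 and Clip4 were no higher than 3.81 in any of the 29. Jchain, the joining chain of secreted antibody, was called with large tissue differences: 13.35, 13.69 and 6.11 in the marker-negative cells and 9.82, 10.25 and 3.49 in SatM (-3.20 ± 0.27, adjusted p = 0.045). It was low in both blood arrays and high in the other 4.

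The genes higher in SatM were led by Chil3, Fabp4 and Fpr2. Chil3, the secreted lectin Ym1, stood at 12.92, 14.67 and 12.72 in SatM of spleen, marrow and blood and at 2.30, 5.34 and 2.30 in the marker-negative cells (10.12 ± 0.36, adjusted p = 0.0313). Fabp4, a carrier of fatty acids, stood at 12.13, 11.82 and 12.27 against 2.67, 2.31 and 2.30 (9.65 ± 0.28, adjusted p = 0.0313). Neither came near overlap in any tissue. Fpr2, a receptor for formyl peptides, differed by 9.38, the haemoglobin scavenger Hp by 9.26, and the glutathione transferase Mgst1 by 8.93 (at least 488-fold). The apolipoproteins Apoc2 and Apoe differed by 9.13 and 8.18, lipoprotein lipase (Lpl) by 8.00, the scavenger receptor Cd36 by 7.34 (adjusted p = 0.05 after rounding, just under the threshold) and the nuclear receptor Pparg by 5.35. Slc11a1, the phagosomal metal transporter, and Clec4d, a C-type lectin of myeloid cells, differed by 8.52 and 8.33.
By list, 4 of 15 tested genes of nonclassical monocytes rose in SatM (Ace, Apoc2, Cd36 and Pparg; median 5.19) and 6 of 12 of classical monocytes (Chil3, Hp, Mgst1, Fn1, Fcgr1 and Ms4a8a; median 6.20), with 0 lower in either. Ace, the angiotensin-converting enzyme of patrolling monocytes, was at 10.05, 8.24 and 10.07 against the floor (7.16 ± 0.54, adjusted p = 0.0412), at least 143-fold. Fn1, fibronectin, was at 11.14, 10.57 and 9.30 against 2.63, 2.58 and 2.45 (7.79 ± 0.47, adjusted p = 0.0385). Called genes of both monocyte lists thus stood above the marker-negative cells. Not all of them are particular to the cells their list is named for. Apoc2 of the nonclassical list was at 11.37 to 11.78 in the inflammatory monocyte arrays, and Chil3 of the classical list at 14.32 to 14.55 in neutrophils. Ccr2, the receptor that brings classical monocytes out of the marrow, was not called, at 10.20, 11.43 and 11.29 in SatM and 10.27, 11.69 and 11.34 in the marker-negative cells (-0.13, adjusted p = 0.606). Itgax, Itgal and Spn, integrin chains and the sialomucin CD43, were above 7 in all 6 arrays and were not called.
Of 18 tested genes shared by monocytes and other myeloid cells, 1 was called, Cebpb (6.07 ± 0.44, adjusted p = 0.0394). The list's median was 5.17, and 16 genes were higher in SatM without overlap, against 12.2% of all genes tested. In the 15-array fit 12 of the 18 were called higher in SatM, against 4.94% of all genes. In 14 of the 18 the marker-negative spleen array lay at least 2 units above those of marrow and blood. Lyz2, lysozyme, was at 14.65, 14.73 and 14.66 in SatM and at 9.99, 7.24 and 2.62 in the marker-negative cells (8.06, adjusted p = 0.116). Of 11 tested fibrosis-associated genes, 0 were called in the 6-array fit, with a median of 1.58.

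Markers of further cells differed between the SatM arrays and the marker-negative ones. The neutrophil list had 9, 12 and 5 of 14 genes at 6 or more in SatM of spleen, marrow and blood and 2, 5 and 0 in the marker-negative cells, and its summed level was 10.14 to 17.20 against 6.42 to 12.09. S100a8 reached 15.09 in marrow SatM and 7.30 in blood SatM, and Camp, a secondary granule protein, 14.69 and 3.47. Cxcr2, a defining marker of mature neutrophils, was at 2.30, 2.58 and 2.30 in SatM. The B cell list had 10, 5 and 9 of 14 genes at 6 or more in SatM and 7, 2 and 1 in the marker-negative cells. Its summed levels were 12.85, 10.67 and 11.55 in SatM of spleen, marrow and blood against 12.26, 11.55 and 7.22. In marrow the marker-negative array was thus the higher by summed level, though 10 of its 14 genes were at the floor, against 3 in SatM. By gene the marrow median was 1.37, with 7 genes at least 1 unit higher in SatM and 2 in the marker-negative cells. Ms4a1 (CD20) was at 10.15, 6.72 and 7.97 in SatM, and Pax5 was at the floor in all 6 arrays.
Marrow SatM also held genes of precursors and granulocytes: Mpo at 13.49, Elane at 11.73, Prg2 at 11.78 and Epx at 9.27, where blood SatM was at 2.30 for each. Of 19 cell cycle genes, 18 were at 6 or more in marrow SatM, 9 in spleen SatM and 5 in blood SatM, against 13, 12 and 10 in the marker-negative cells of spleen, marrow and blood. Slc4a1, the red cell anion exchanger, was at 9.39 and 9.95 in the marrow arrays of the sorts and at 2.33 or less elsewhere. The part of these cells in the differences between SatM and marker-negative cells was not tested.

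Within single tissues the lymphoid and monocyte lists kept their direction, while the antigen presentation lists did not. The median of the NK receptor list was -7.00 in spleen, -7.38 in marrow and -8.80 in blood, beside -0.14, 0.00 and -0.10 over all genes. The classical monocyte list stood at 5.19, 7.59 and 6.04. In both lists the spleen median was smaller in size than those of marrow and blood. The shared monocyte list, by contrast, ran from 1.71 in spleen to 5.61 in marrow and 8.27 in blood. The MHC class II list was higher in the marker-negative cells in spleen (-1.49) and higher in SatM in marrow (1.36) and blood (5.17), and the dendritic cell list went from -2.73 to 0.41 and 1.30. With 1 pair of arrays per tissue, no tissue has a test of its own.

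**Figure D3:**
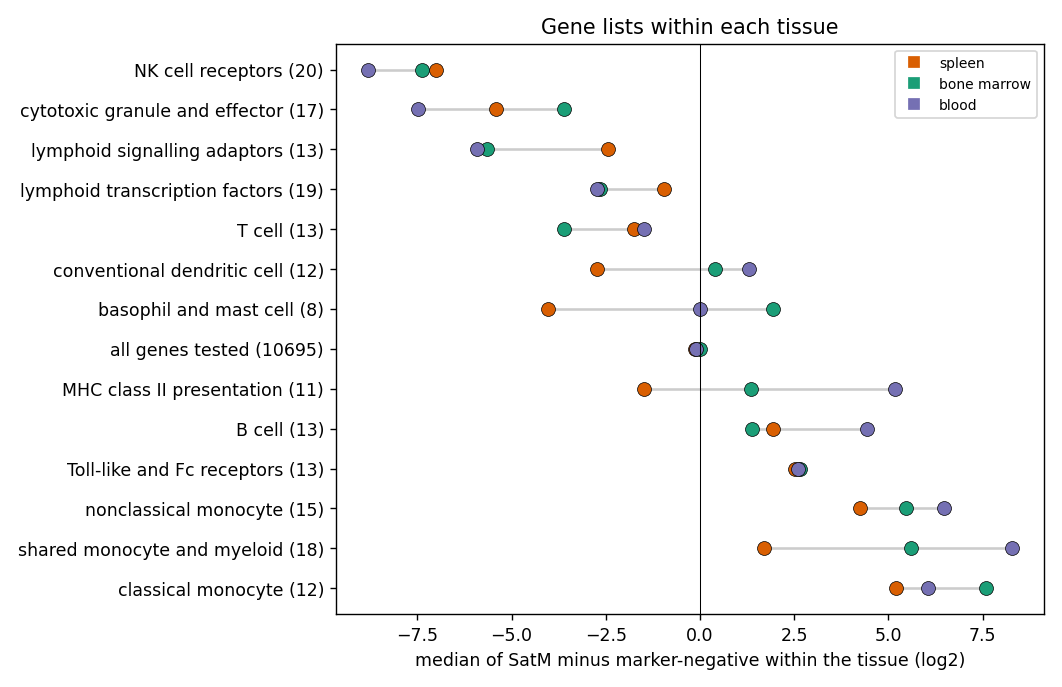
Median SatM minus marker-negative difference (log2) of 13 gene lists and of all genes tested, 1 point per tissue; the number of tested genes is in brackets. The spleen point lies nearest to or across 0 for the shared monocyte (1.71), MHC class II (-1.49) and dendritic cell (-2.73) lists, and on the same side as marrow and blood for the NK receptor list (-7.00).

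The marker-negative spleen array kept the cytotoxic genes and held a second set of genes at levels well above those of marrow and blood. It lay at least 2 log2 units above both other marker-negative arrays in 568 genes (5.31% of those tested) and at least 2 below both in 63 (0.589%). The spleen SatM array did so in 94 (0.879%) and 14 (0.131%), so the shift was not matched by the SatM sort from the same tissue. The marker-negative marrow array was above both others in 71 genes (0.664%) and below both in 5 (0.0468%), and the blood array in 69 (0.645%) and 241 (2.25%). Over the tested genes, Pearson's r was 0.950 between the marker-negative marrow and blood arrays, 0.913 between spleen and marrow and 0.867 between spleen and blood; these are across genes, which are not independent. Spleen was the tissue where the sorts were most alike, with r = 0.883 between SatM and marker-negative cells against 0.798 in marrow and 0.771 in blood.
In limma's fit the marker-negative spleen array differed from the mean of marrow and blood in 46 genes (0.43%), 45 higher and 1 lower, with 985 at an unadjusted p under 0.05. The lone spleen array is assumed there to vary as marrow and blood do, and most of the called genes were under 3 in both. For SatM the same contrast called 0 genes (342 at an unadjusted p under 0.05), and the test of the difference between these shifts called 0 (748 at an unadjusted p under 0.05). A difference of the spleen shift between the sorts was thus seen as a count of genes by size, and its test depended on the filter. With no filter on dim genes the marker-negative contrast called 191 genes, the SatM contrast 47 and the difference between the shifts 198. With robust estimation, without the trend or with the filter at the 60th percentile, the 46 calls became 0.

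**Figure D4:**
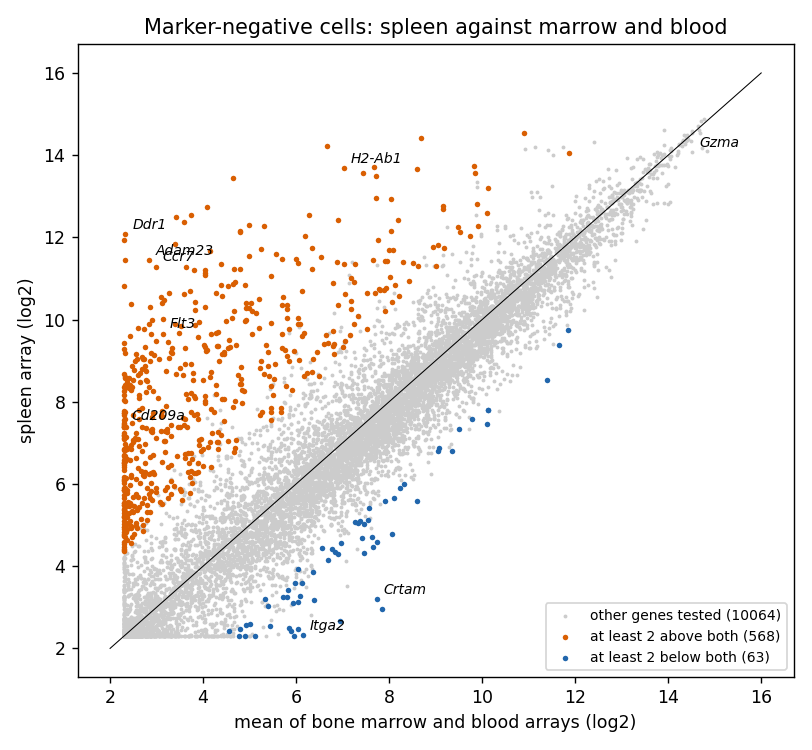
Level of each tested gene in the marker-negative spleen array (log2, vertical axis) against the mean of the marker-negative marrow and blood arrays (log2, horizontal axis), with the line of equal levels; 568 genes at least 2 units above both other arrays and 63 at least 2 below both are coloured. Gzma lies on the line near the top, while Ddr1, Adam23, Ccr7 and Flt3 lie high on the left.

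Antigen presentation led the genes above both other arrays. All 11 tested genes of the MHC class II list were among them, with a median spleen shift of 6.02 beside -0.11 over all genes. H2-Ab1, a chain of the class II molecule I-A, was at 13.69, 9.43 and 4.62 in marker-negative spleen, marrow and blood and at 11.39, 10.54 and 10.50 in SatM. Ciita, the master regulator of class II genes, was at 8.01, 2.33 and 2.33 in the marker-negative cells and at 4.07, 2.36 and 3.97 in SatM. In the marker-negative arrays most class II genes were graded from spleen over marrow to blood, and for both genes the spleen marker-negative array was the highest of the 6. Cd86 and Cd80, costimulatory ligands, were at 9.34 and 8.59 in spleen and at 3.21 or less in marrow and blood.
Of 12 tested genes of conventional dendritic cells, 8 lay above both. Flt3, the growth factor receptor of dendritic cell precursors, was at 9.66, 3.97 and 2.30, and Zbtb46, a factor that marks conventional dendritic cells, at 11.38, 7.98 and 9.06. Cd209a, a lectin of monocyte-derived and type 2 dendritic cells, was at 7.42 in spleen and at the floor in marrow and blood (shift 5.12, adjusted p = 0.0333). Ccr7, the receptor that guides dendritic cells and naive lymphocytes into lymphoid tissue, was at 11.29, 3.65 and 2.30, and Batf3 at 8.69, 2.74 and 2.56. In SatM these genes stayed at 7.73 or less in every tissue. Xcr1, a defining marker of type 1 dendritic cells, was at 3.01 in the spleen array, near the floor.

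Myeloid genes stood off the floor in the same array. Of 18 shared monocyte genes 14 lay at least 2 units above both others (median shift 4.84), as did 7 of 15 nonclassical genes, but 0 of 12 classical ones (median shift 0.00). Sirpa, an inhibitory receptor of myeloid cells, was at 12.54, 4.95 and 2.55 and Cybb, the oxidase chain gp91phox, at 9.14, 3.33 and 2.55. Adgre4, a receptor of the F4/80 family on nonclassical monocytes and dendritic cells, was at 8.75, 2.85 and 2.71 (shift 5.97, adjusted p = 0.0426), where SatM was at 12.61 or more. Chil3, Mgst1, Ace, Vcan and Cd14 were at the floor in the spleen array. Adgre1, which encodes F4/80 and on which the label says the cells were negative, was at 8.17 in spleen and at the floor in marrow and blood. Itgam, the Mac1 chain they were sorted for, was at 3.74, 3.41 and 4.70. It was under 6 in every SatM array as well, so its probe set was dim in both sorts.
Genes of further cell types moved with the spleen array. The B cell list had 7 of 13 genes above both others, among them Ms4a1 at 7.73, 2.30 and 2.30 and Ebf1, an early B cell factor, at 7.46, 2.30 and 2.30, while Pax5 was at the floor. The T cell list had 3, of which Cd4 (shift 4.56, adjusted p = 0.0426) and Cd5 (2.49, adjusted p = 0.037) were called in limma's fit. Another member of that list, Ubash3a, was called lower. The basophil and mast cell list had 6 of 8 above both, with Gata2 at 9.31, 5.94 and 3.14, Kit at 9.16, 6.20 and 2.72 and the basophil protease Mcpt8 at 7.27, 3.83 and 2.61. Summed levels in the marker-negative arrays of spleen, marrow and blood were 12.26, 11.55 and 7.22 for the B cell list, 10.90, 7.99 and 5.80 for basophils, 14.76, 12.78 and 9.68 for dendritic cells and 14.96, 12.45 and 11.20 for shared monocyte genes. Immediate-early and stress genes ran the same way, at 16.91, 15.96 and 14.72, with 6 of 16 above both others; in SatM they ran 17.05, 16.66 and 15.85. Spleen SatM rose in the lymphocyte lists as well. In the T cell list 5 genes lay above both other SatM arrays, with a median shift of 2.52 against 1.64 in the marker-negative cells. In the B cell list 3 did, with 2.04 against 3.12. The basophil list did not rise in spleen SatM (0 genes, median shift -1.48). The part of these cell types and of handling in the spleen shift was not tested.

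**Figure D5:**
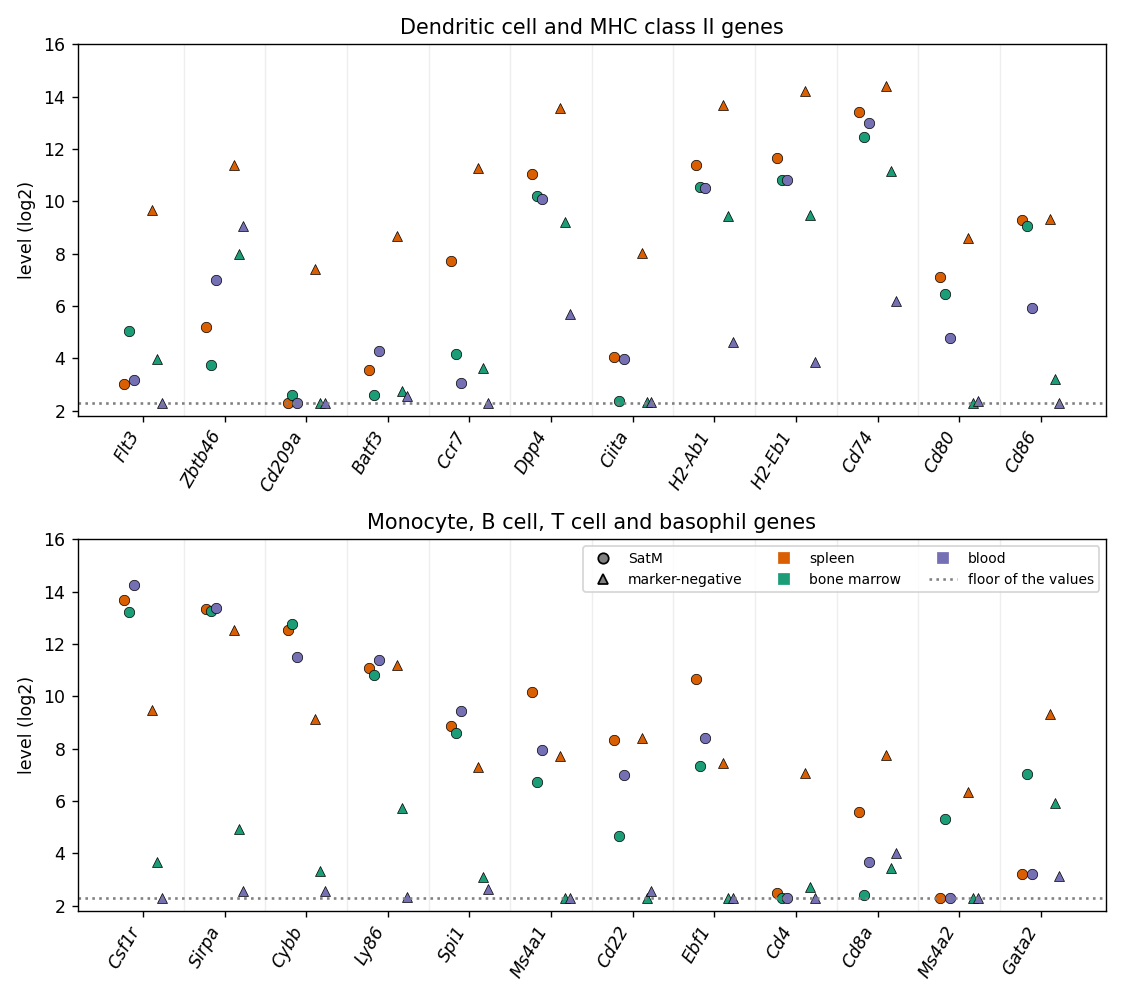
Levels (log2) in the 6 arrays of 12 dendritic cell and MHC class II genes (upper panel) and of 12 monocyte, B cell, T cell and basophil genes (lower panel); circles are SatM, triangles marker-negative cells, colour is the tissue, the dotted line is the floor at 2.30 and each point is 1 array. The spleen marker-negative array is the highest of its sort throughout, and for Flt3 (9.66), Cd209a (7.42) and Ciita (8.01) the highest of all 6.

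The single genes farthest above both others were of mixed kind. Ddr1, a collagen receptor kinase, was at 12.08 against 2.33 in marrow and in blood, Dnase1l3, a secreted nuclease of dendritic cells and macrophages, at 11.93 against the floor, and Ffar2, a receptor for short-chain fatty acids, at 11.46 against 2.36 and 2.30. Adam23, a cell adhesion protein, was at 11.44, 2.70 and 2.98 (shift 8.60, adjusted p = 0.0354), and Tbc1d4, a Rab GTPase regulator, at 12.49, 4.37 and 2.47. SatM separates these genes: Ddr1 was at 6.94 to 8.76 there and Adam23 at 2.30 to 3.23. Il1b, interleukin 1 beta, was at 12.37, 4.73 and 2.43, but at 13.41, 13.63 and 10.13 in SatM. Called genes with known roles included the transglutaminase Tgm2 (shift 7.33, adjusted p = 0.0333) and Kynu and Kmo, enzymes of tryptophan breakdown (6.09 and 5.83, adjusted p = 0.0333 each).
Of the 568 genes, 469 were at 6 or more in the marker-negative spleen array, 136 (23.9%) in the marrow and 75 (13.2%) in the blood array of the same sort. Elsewhere in the series the Msr1-dull Ceacam1-dull sort from lung held most of them, 463 (81.5%, where 66.2% of all tested genes reached 6), followed by the other Ly6C-negative cells of spleen with 428 (75.4%, against 62.9%). Spleen SatM held 396 (69.7%, against 60.1%), and 262 of the 568 were higher in the marker-negative spleen array than in any SatM array. The lung sort also gave the highest r with the spleen array outside its own sort, 0.896. In that lung array Flt3, Cd209a and Ciita reached 10.36, 9.65 and 9.17.

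Genes lower in the spleen array were fewer, and lymphoid genes were among them. Crtam, a receptor of activated NK and CD8 T cells, was at 3.20, 7.99 and 7.47 in marker-negative spleen, marrow and blood (shift -4.53, adjusted p = 0.0815), and Itga2, the integrin chain CD49b of NK cells, at 2.33, 5.42 and 6.86. Ubash3a, a regulator of T cell receptor signalling, was the 1 gene called lower, at 2.43, 5.93 and 5.85 (-3.46, adjusted p = 0.0426). Fgf13, a member of the fibroblast growth factor family, was at 2.67, 7.16 and 6.73. SatM held none of the 4 above 2.77. Of the 63 genes, 49 were under 6 in all 3 SatM arrays, a share that was not computed over all genes tested. Among the 44 called higher in the marker-negative cells were 0 of the 63, which is near the 0.411% of all genes tested.
The called lymphoid genes were lower in spleen by less than the genes just named. The spleen array was the lowest of the 3 marker-negative arrays in 37 of the 44 genes higher in that sort, where it was the lowest in 41.5% of all genes tested, and the median spleen shift was -1.55 over the NK receptor list and -1.30 over the cytotoxic list. For Gzma the spleen shift was -0.45 and for Klrd1 -0.73. On the SatM side, the spleen was the highest of the marker-negative arrays, ties above the floor included, in 44 of the 92 genes higher in SatM. It was the highest in 27.6% of all genes tested, a share that leaves ties out. The count and the share are therefore not like measures, and no excess is read from them. The list medians of SatM minus marker-negative were smallest in size in spleen for NK receptors, signalling adaptors, transcription factors and the 3 monocyte lists; for the cytotoxic list marrow was smallest (-5.41 in spleen, -3.60 in marrow and -7.48 in blood).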

How the data were processed

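The deposited values are log2 levels per probe set of an Affymetrix mouse array, 45101 probe sets in 35 arrays; the authors' normalization is not given in the sources used here, and the log base was read from the range (2.30 to 16.02). RNA came from cells sorted by flow cytometry, per the labels' protocols. The platform annotation gave 34945 probe sets 1 symbol, 932 several and 9160 none; 64 were controls. Symbols were updated through Entrez identifiers (34741 matched), and 1 probe set, the one of highest mean level in the 35 arrays, stood for each of 18193 genes. Genes over their array's median in at least 2 of the 6 arrays were tested with limma 3.58.1 (R 4.3.3; lmFit and eBayes with trend, tissue as block, Benjamini-Hochberg adjustment), and the fitting step was tested on simulated data. Pairing by tissue comes from the labels; deviations of same-tissue arrays from their group means correlated at 0.16 (spleen), 0.23 (marrow) and 0.29 (blood) across genes.

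Genes were named by a rule: the 12 largest rises and 12 largest falls among called genes without overlap, up to 4 called members of each list with at least 3, the 4 marker genes and the sort genes, the 10 genes farthest above and below both other marker-negative arrays, up to 4 members of each list with at least 3 such genes, and any member of the NK receptor, cytotoxic and transcription factor lists. Further genes named were chosen after their values were seen. The members and the 28 gene lists were chosen with earlier results of these data known. List genes without a probe set of a single symbol were not analysed here. A level of 6 or more stands for presence in counts of list genes, and a summed level is the log2 of the summed linear values. A fold against a group at the floor is a lower bound. Alternatives were quantile normalization, other filters, probe sets averaged per gene, eBayes settings, the 15-array panel, no block and leaving out each tissue. Depth is not defined for arrays; their number limits the precision.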

Additional observations from a re-analysis of the deposited data

How the results depend on the processing

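Of the differences followed through the alternatives, mainly those of called genes, none changed sign. Other named genes ran in different directions by tissue, so the sign of their mean can depend on the pairs kept. Ciita and H2-Ab1, for example, were higher in the marker-negative cells in spleen and higher in SatM in blood. The count of 136 called genes between SatM and marker-negative cells became 294 after quantile normalization, 0 with no filter on dim genes (2260 at an unadjusted p under 0.05 in limma), 625 with the filter at the 60th percentile, 219 with robust estimation, 1200 in the 15-array fit and 651 with no replicate block, that is, without the pairing by tissue. It was 157 with probe sets averaged per gene, 127 without the trend and 136 with no fold threshold. With each tissue pair left out in turn the count was 0 in each case, and in the 15-array fit, added after seeing the data, it was 1004 without spleen, 416 without marrow and 235 without blood. The 46 calls for the marker-negative spleen array became 29 after quantile normalization, 191 with no filter and 0 with the filter at the 60th percentile, without the trend or with robust estimation; they were 51 with the mean of the probe sets. With no filter, the SatM spleen contrast called 47 genes and the difference between the spleen shifts 198, where both called 0 otherwise. The filter sets how many genes the adjustment is over and which genes inform the trend; the causes of the other moves were not tested. The spleen contrasts without marrow or without blood leave no residual degrees of freedom, so these gave values with no test. The 631 genes by which that array stood apart became 1543 at 1 log2 unit and 356 at 3, 638 after quantile normalization and 500 with the mean of the probe sets. Values at the floor have no order, so differences of dim genes are limited by it.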
